A study of Mus musculus with 6 samples.

Results

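Foxp3-positive regulatory T cells were studied in the lungs of bleomycin-injured mice as single cells. Their number and their transcripts were compared, mouse by mouse, between animals given the CTLA4 antibody ipilimumab and animals given its isotype control IgG1. A barcode with at least 1000 unique molecular identifiers (UMIs, 1 for each captured RNA molecule), at least 500 genes and at most 10% mitochondrial UMIs was taken as a cell. A cell was a member when it held at least 2 UMIs over Cd3e, Cd3d and Cd3g (chains of the T cell receptor complex) and at least 1 of Foxp3, with none of Cd8a, Cd8b1 (the CD8 coreceptor) or the B cell gene Cd79a. The members were thus chosen by their own counts of these genes, which are given below as a description. The rule found 169 members among 25704 cells. They were 18, 25 and 19 cells in IgG1 replicates 1 to 3 and 35, 28 and 44 cells in ipilimumab replicates 1 to 3.

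The 6 mice were male, 12 weeks old, and all carried exons 2 and 3 of human CTLA4 in place of the mouse sequence (hCTLA4 knock-in mice on a C57BL/6 background), so that the antibody can bind. All 6 mice had received 2 doses of bleomycin at 1.25 U per kg, 2 weeks apart, an injury that scars the lung. From day 21 after the second dose, 3 mice were given IgG1 and 3 were given ipilimumab, at 5 mg per kg in 2 doses a week for 4.5 weeks. The right lung of each mouse gave 1 library, and every comparison rests on bleomycin-injured knock-in animals, since no other group was analysed here.

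Regulatory T cells are CD4 T cells whose program is set by the transcription factor Foxp3 and which restrain other T cells. They need interleukin 2, which they bind through the receptor chain encoded by Il2ra, and they carry much CTLA4, a receptor that takes the ligands CD80 and CD86 away from the activating receptor CD28. In tissues many of them respond to interleukin 33 through the receptor encoded by Il1rl1 and make amphiregulin, a growth factor linked to repair. Ipilimumab binds the human form of CTLA4, so cells of this kind can bear the drug's target. Only Ctla4 RNA was counted here, not the protein.

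The libraries held 42665284, 47919257 and 37666042 UMIs for IgG1 and 47897924, 48497310 and 48612412 UMIs for ipilimumab. Ipilimumab replicate 1 stood apart from the other libraries. Barcodes with 100 or more UMIs numbered 22056 in it and 4834 to 6230 elsewhere, and 80.8% of its UMIs were in cells, against 92.1% to 92.3% in the other libraries. Libraries shared 0 to 9 cell barcodes per pair, at most 0.269% of the smaller library. The median member held 6873.5, 9359 and 10685 UMIs in the IgG1 mice and 9299, 9797.5 and 7627.5 UMIs in the ipilimumab mice, and the summed members of a mouse held between 155214 UMIs (IgG1 replicate 1) and 515670 UMIs (ipilimumab replicate 3).

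Foxp3, on chromosome X from 7573644 to 7595245 on the plus strand (GRCm38), was sparse, as is usual for a transcription factor. Of the members, 52 held 1 Foxp3 UMI, 46 held 2 and 71 held 3 or more, up to 12. At the edge of the rule, 7 members held exactly 2 Cd3 UMIs and 1 member held fewer than 2000 UMIs. Just outside it were 4 cells with Foxp3 and 1 Cd3 UMI and 11 cells with Foxp3 and exactly 1 Cd8 UMI. Over all 25704 cells, 281 held a Foxp3 UMI. Beside the 169 members these were 29 cells without a Cd3 UMI, the 4 with 1 Cd3 UMI, 46 with Cd8, some of them with Cd79a as well, and 33 with Cd79a and no Cd8. IgG1 replicate 1 had the faintest members, with a single Foxp3 UMI in 12 of its 18.

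To gauge the Foxp3 signal from free RNA, it was read in B cells (Cd79a and Cd79b without Cd3), which should lack it. Foxp3 was found in 17 of 8034 B cells, with a mean of 0.131% ± 0.0725 (SD, n = 3 mice) for IgG1 and 0.271% ± 0.109 for ipilimumab. The median B cell held between 5327 and 6762 UMIs in the 6 mice, fewer than the median member in each mouse.

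The label of a regulatory T cell was checked on 4 other genes that mark these cells. Ctla4 (chromosome 1, 60887000 to 60915832, plus strand, GRCm38) was found in 163 of 169 members, or 96.4%. Ikzf2, encoding the transcription factor Helios, was found in 145 members, Tnfrsf4, encoding the costimulatory receptor OX40, in 131, and Il2ra in 92. Among 1544 Foxp3-zero Cd4 T cells (the same rule with no Foxp3 and at least 1 Cd4 UMI), the shares were 52.7% for Ctla4, 17.4% for Ikzf2, 27.1% for Tnfrsf4 and 3.76% for Il2ra. In B cells they were 6.27%, 0.498%, 0.859% and 1.53%. A Cd4 UMI was found in 107 members (63.3%), from 44.4% in IgG1 replicate 1 to 68.4% in IgG1 replicate 3. At the depth of the libraries each of the 4 genes was thus found in a larger share of members than of the other classes in every mouse, with the shares in members lowest for Ctla4, Ikzf2 and Tnfrsf4 in IgG1 replicate 1.

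**Figure D1:**
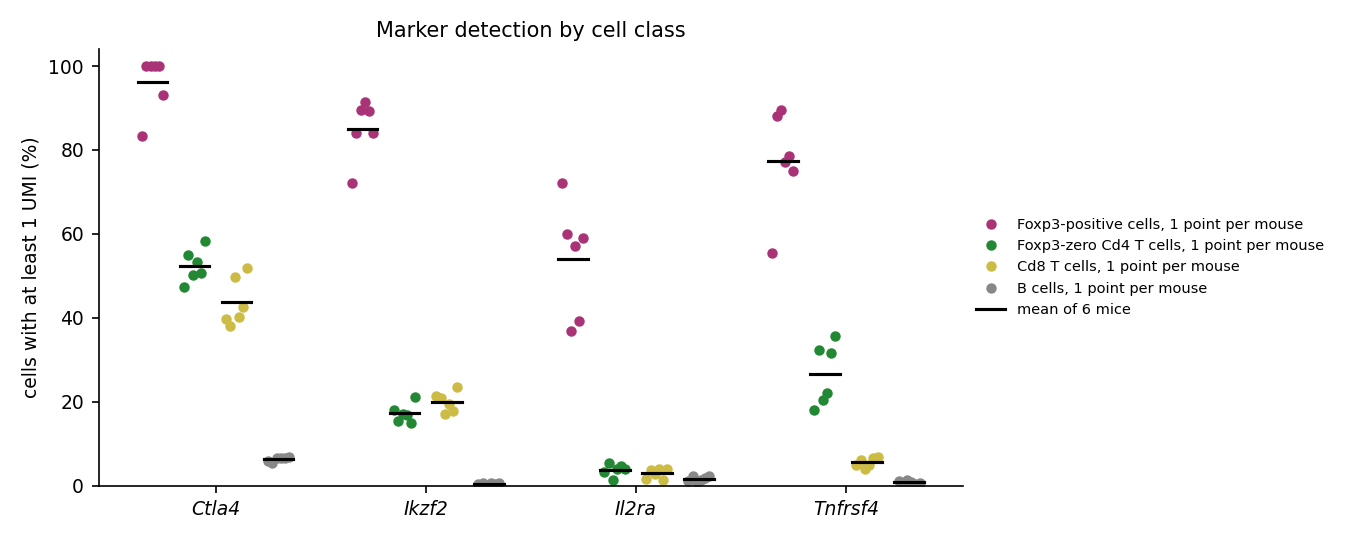
Share of cells with at least 1 UMI (%, vertical axis) of 4 regulatory T cell genes (horizontal axis) in Foxp3-positive cells, Foxp3-zero Cd4 T cells, Cd8 T cells and B cells. Each point is a mouse and each black line the mean of the 6 mice. The Foxp3-positive cells lie above the 3 other classes for each gene in each mouse, between 83.3% and 100% for Ctla4 and between 36.8% and 72.2% for Il2ra.

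Depth was evened by thinning each cell to 1000 UMIs. Ctla4 was then still found in 66.7% to 92.0% of the members of a mouse, against 16.6% to 30.5% of its Foxp3-zero Cd4 T cells and 10.0% to 17.6% of its Cd8 T cells. Ikzf2 was found in 50% to 78.9% of members and 5.39% to 9.0% of Foxp3-zero cells. Tnfrsf4 was found in 11.1% to 32.0% of members and 2.9% to 8.68% of Foxp3-zero cells. Il2ra was found in 5.26% to 20.0% of the members of 5 mice, but in none of the 28 members of ipilimumab replicate 2 and 0.725% of its Foxp3-zero cells, and was thus not informative at this depth there. These marker shares describe the members and were not tested.

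RNA of other cell types was concentrated in a few members. Lists of B cell, macrophage, neutrophil and dendritic cell markers together reached at least 100 UMIs in 12 members (2, 3 and 0 in the IgG1 mice and 2, 4 and 1 in the ipilimumab mice), which held 105 to 923 such UMIs. The other 157 members held at most 56. These 12 cells carried 85.6% of all such UMIs and had a median of 24155.5 UMIs against 8633 in the others, and 9 of them were also scored as doublets. In the summed members, the 8 macrophage markers, led by Lyz2, stood at 5019, 2467 and 124 CPM (UMIs of a gene scaled to a fixed total per mouse) in the IgG1 mice and at 479, 1633 and 351 CPM in the ipilimumab mice. The 4 neutrophil markers, led by S100a9, stood at 45.1, 28.9 and 8.55 CPM for IgG1 and at 1975, 2142 and 1.94 CPM for ipilimumab. The 8 B cell markers, led by Cd74, stood at 3421, 371 and 338 CPM for IgG1 and 489, 2282 and 1220 CPM for ipilimumab. All genes of these lists were detected. The 5 epithelial markers, led by Scgb1a1, were low but did not overlap between the groups, at 19.3, 21.0 and 0 CPM for IgG1 and 55.8, 80.3 and 38.8 CPM for ipilimumab (exact permutation p = 0.1, the smallest possible), and their part in the treatment comparisons was not tested. The defining fibroblast genes Col1a1, Col1a2 and Col3a1 were at 0 in all members. Of 7 natural killer and innate lymphoid cell genes, Ncr1 and Klrb1c were at 0 and 5 were detected, led by Nkg7 with 89 UMIs, and the list stood at 0, 44.7 and 59.9 CPM for IgG1 and 27.9, 135 and 34.9 CPM for ipilimumab. Values without these cells are given beside many of the results that they change.

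The number of regulatory T cells was set against all cells, since CTLA4 antibodies can act on the cells that carry most CTLA4. Members made up 0.397%, 0.579% and 0.568% of the cells of the IgG1 mice and 0.677%, 0.673% and 1.05% of the cells of the ipilimumab mice. Each ipilimumab mouse thus lay above each IgG1 mouse. The means were 0.515% ± 0.102 and 0.801% ± 0.218 (SD, n = 3 each), a ratio of 1.56. The exact two-sided permutation test gave p = 0.1, the smallest that 3 against 3 mice allow, and 0.2 after adjustment over the 4 measures of number.

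Within the T cells the groups overlapped. Members were 2.16%, 3.37% and 2.25% of the T cells of the IgG1 mice and 3.82%, 3.06% and 4.59% of those of the ipilimumab mice, so that IgG1 replicate 2 lay above ipilimumab replicate 2. The means were 2.59% ± 0.676 and 3.82% ± 0.764 (exact permutation p = 0.2). Of T cells without Cd8, members were 4.64% ± 0.861 and 6.20% ± 1.03 (exact permutation p = 0.2). For each 100 Cd8 T cells there were 5.99 ± 2.23 and 10.0 ± 2.56 members (exact permutation p = 0.2). Adjusted over the 4 measures, each p was 0.2. The Clopper-Pearson 95% intervals of single mice, which cover counting error only, ran from 0.236% to 0.627% of all cells in IgG1 replicate 1 and from 0.766% to 1.41% in ipilimumab replicate 3, which do not overlap, while those of every other pair of mice from the 2 groups did.

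**Figure D2:**
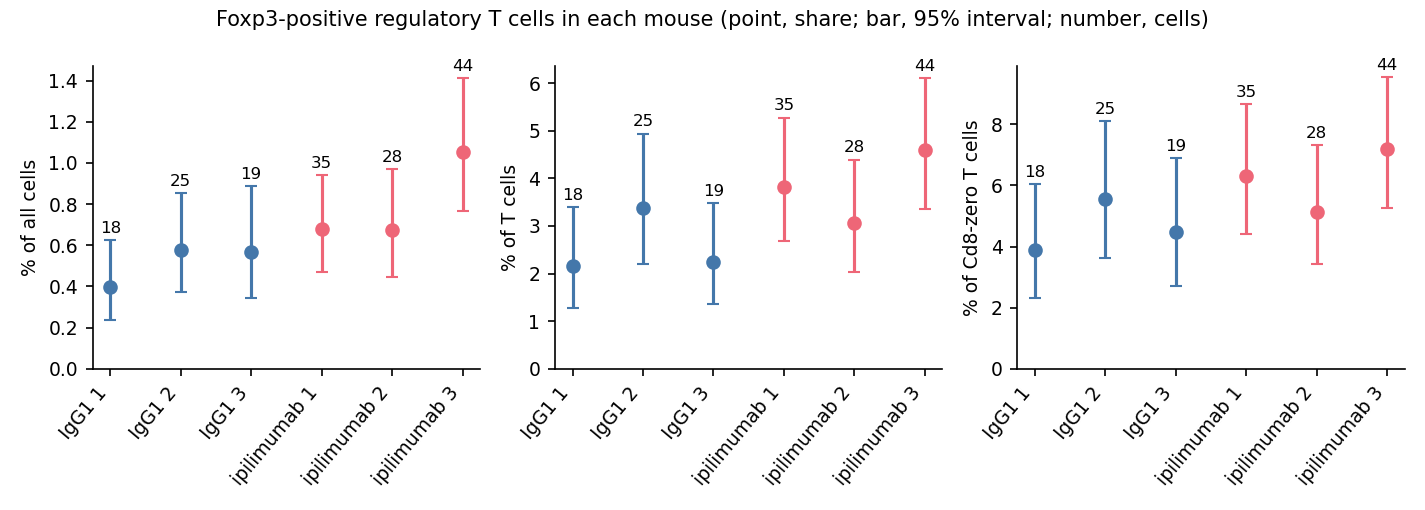
Foxp3-positive cells in each mouse as a share (%, vertical axes) of all cells, of T cells and of T cells without Cd8, with 95% Clopper-Pearson intervals as bars and the number of members above each bar. The 3 ipilimumab mice lie above the 3 IgG1 mice for all cells, and the groups overlap in both shares of T cells.

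A count model gave a similar size. Each cell of a mouse was also placed in 1 of 5 classes. The edgeR quasi-likelihood test over these counts put the members 0.64 higher in ipilimumab on the log2 scale (SE 0.32, adjusted p = 0.315 over the 5 classes), with a 95% interval of -0.04 to 1.31. The interval thus took in no difference. It is of a share of captured cells at the depth of the libraries, and a change in absolute number was not measured. Without the 12 cells rich in other RNA the log2 ratio of the share of all cells was 0.65, and without ipilimumab replicate 3 it was 0.39. When each cell was thinned to 1000 UMIs before the rule was applied, only 15 members were left and the log2 ratio was 0.03.

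Members were set against the Foxp3-zero Cd4 T cells of the same 6 mice to find what else sets them apart. Foxp3, Cd4, the other genes of the rule and the 4 markers chose or named the cells and were not tested. Of the markers, the level of Ctla4 was 1899 CPM in the lowest mouse, 2850 CPM at the median and 3837 CPM in the highest mouse for members, against 466, 559 and 924 CPM for Foxp3-zero cells. Among 8494 other genes tested, 431 were higher in members (5.07%) and 345 were lower (4.06%), 9.14% in all. A gene was called when its adjusted p was under 0.05 and its log2 fold change exceeded 0.3 in size, in edgeR with mouse as a term.

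The core list of regulatory T cell genes held 9 higher and 4 lower of 15 tested, with a median log2 fold change of 0.74 against -0.01 over all genes. Lrrc32, which encodes GARP, the surface dock for latent TGF-β, led all called genes that pointed one way in every mouse. Its lowest, median and highest levels were 69.5, 93.1 and 124 CPM in members and 2.06, 4.05 and 5.86 CPM in Foxp3-zero cells (log2 fold change 4.66, SE 0.22, adjusted p = 2.71e-07). Gpr83, an orphan receptor gene of these cells, was higher by 3.57 (SE 0.58), Ikzf4, encoding the Helios relative Eos, by 2.11 (SE 0.20), and Nrp1, encoding the receptor neuropilin 1, by 1.69 (SE 0.26), each in 6 of 6 mice. Capg, Tnfrsf18 (the costimulatory receptor GITR), Izumo1r (folate receptor 4), Il2rb (the interleukin 2 receptor β chain) and Foxo1 were also higher. The 4 lower genes were Satb1 (log2 fold change -1.24, SE 0.22, lower in 5 of 6 mice), Bach2, Foxo3 and Nfatc1, which encode a chromatin organizer and 3 transcription factors.

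Tissue effector genes pointed one way. Of 16 tested, 7 were higher and none lower, and the median log2 fold change was 0.85. Il1rl1, the interleukin 33 receptor, was at 0, 145 and 426 CPM (lowest, median and highest mouse) in members and at 1.46, 8.89 and 37.6 CPM in Foxp3-zero cells (log2 fold change 3.80, SE 0.32, adjusted p = 1.77e-05). It was higher in 5 of 6 mice and at 0 in the members of IgG1 replicate 1. Itgae, the integrin chain that holds T cells to epithelium, was higher by 3.69 (SE 0.45), Klrg1, an inhibitory receptor of mature effector cells, by 3.10 (SE 0.41), and Areg, which encodes amphiregulin, by 2.62 (SE 0.47). Nfil3, S100a4 and Maf completed the called genes. Gata3, a transcription factor of type 2 and tissue regulatory T cells, had a log2 fold change of 0.62 (SE 0.20) and was not called (adjusted p = 0.0798), nor was the gene of the suppressive cytokine interleukin 10, Il10 (1.22, SE 0.45, adjusted p = 0.123). Without the cells rich in other RNA, 10 of 15 tissue effector genes were called higher, with Gata3 (0.69, adjusted p = 0.0116), Prdm1 (1.45) and Rora (0.80) added.

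Genes of naive and recirculating T cells went the other way, with 7 of 12 lower, none higher and a median of -0.62. Lef1, a transcription factor of naive cells, was at 333, 496 and 822 CPM in members and at 1108, 1322 and 1648 CPM in Foxp3-zero cells, without overlap (log2 fold change -1.42, SE 0.10, adjusted p = 7.50e-06). Its partner Tcf7 was lower by 1.70 on the log2 scale (a log2 fold change of -1.70, SE 0.21). Igfbp4 (-2.64, SE 0.31), Dapl1 (-3.14, SE 0.54), Bcl2, which protects from cell death (-1.03, SE 0.18), S1pr1, needed to leave tissue for lymph (-0.69, SE 0.10), and Il7r, the interleukin 7 receptor (-0.54, SE 0.11), were also lower, each in 6 of 6 mice. Ccr7, a chemokine receptor gene of lymph node homing, had a log2 fold change of -0.04 (SE 0.22) and was not called.

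**Figure D3:**
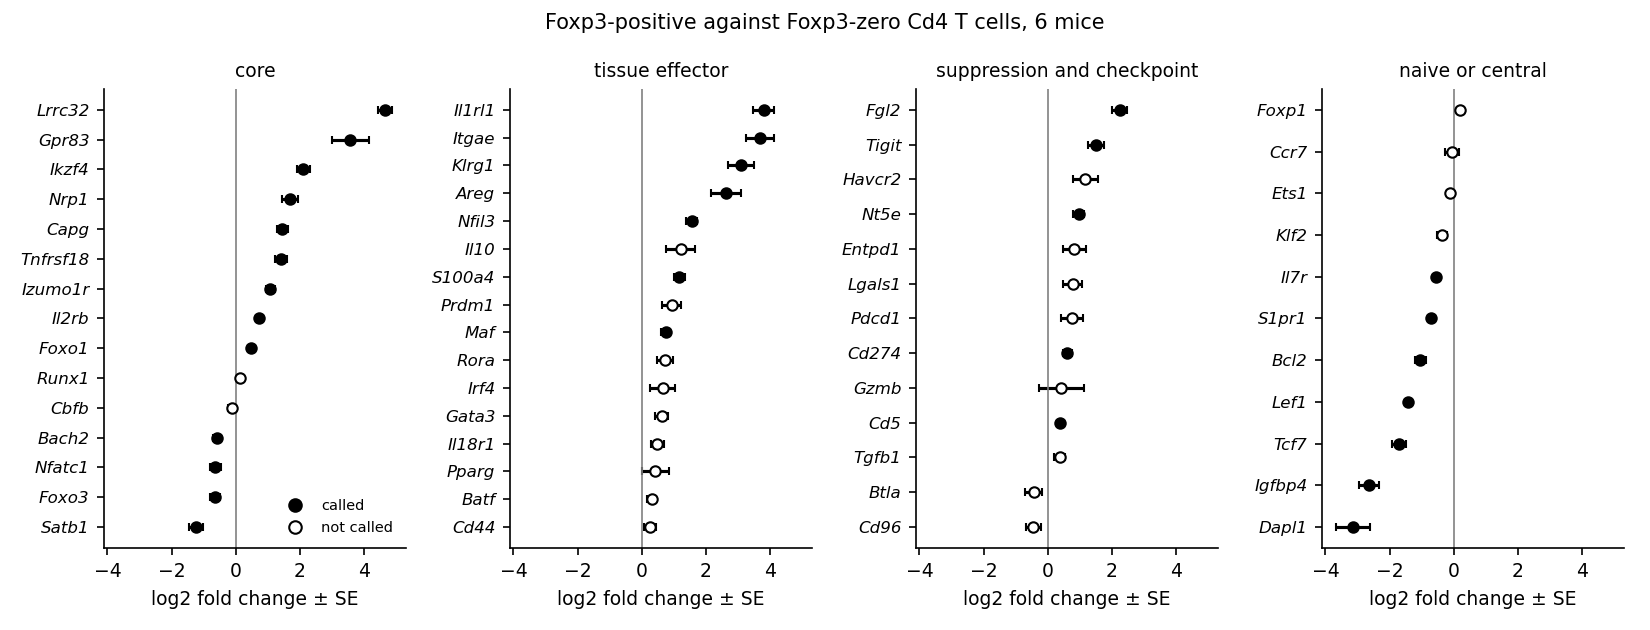
Log2 fold change (horizontal axes, with SE bars) of Foxp3-positive over Foxp3-zero Cd4 T cells in 6 mice for genes of 4 lists (vertical axes). Filled points were called and open points were not. Lrrc32, at 4.66, and Il1rl1, at 3.80, stand farthest to the right, and Dapl1, at -3.14, farthest to the left.

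Of 13 suppression and checkpoint genes tested, 5 were higher and none lower. They were Fgl2, a secreted fibrinogen-like suppressor (log2 fold change 2.24, SE 0.23), the inhibitory receptor gene Tigit (1.51, SE 0.24), Nt5e, encoding the adenosine-forming enzyme CD73 (0.97, SE 0.18), Cd274, encoding PD-L1 (0.62, SE 0.14), and Cd5 (0.39, SE 0.11). Entpd1, encoding CD39, had a log2 fold change of 0.83 (SE 0.36) and was not called, and without the 12 cells rich in other RNA its value was -0.59. Of the TNF receptor family, Tnfrsf9, the activation receptor 4-1BB, was at 78.3, 248 and 551 CPM in members against 15.1, 21.5 and 55.8 CPM (log2 fold change 3.38, SE 0.32). Cd27 and Tnfrsf1b were higher too, and the ligand genes Cd40lg (-1.58, SE 0.37) and Tnfsf11 (-2.02, SE 0.36), which helper cells use to activate their partners, were lower.

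Costimulation and antigen receptor genes were split, with 4 higher (Icos, Cd2, Rel and Nfkb1) and 3 lower (among them Cd247 and Pik3cd) of 17. Rel, an NF-κB subunit that regulatory T cells need, was higher by 1.10 (SE 0.14). Of the helper lineage genes, Tbx21 (T-bet, the factor of interferon-producing cells), Ifng and Il12rb2 were lower, and Il12rb2, a chain of the interleukin 12 receptor, had no more than 17.3 CPM in the members of any mouse and at least 38.3 CPM in Foxp3-zero cells (log2 fold change -3.43, SE 0.30). Ifngr1, the receptor for interferon-γ, was higher. Among homing genes, the chemokine receptor Ccr2 was at 86.9, 141 and 235 CPM in members and 19.3, 28.2 and 48.1 CPM in Foxp3-zero cells (log2 fold change 2.33, SE 0.14), Cxcr4 and Itgb7 were higher, and Gpr183 was lower.

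For the lists that follow, 5.07% of all genes tested were called higher and 4.06% lower. A list of 10 to 12 genes with 1 call thus lies near the 9.14% called in all. Of 9 genes of class I antigen presentation, Tap2, Psmb8 and Psmb9 were higher and none was lower. Of 10 genes of interleukin 2 and STAT5 signaling, the STAT5 target Cish was called, by 1.22 (SE 0.18). Of 12 division genes, Cdk1 was called, by 1.24 (SE 0.34), and the list's median was 0.55. Without the cells rich in other RNA 5 of the 12 were called higher, with Mki67, Top2a, Birc5 and Cks1b added and a median of 0.63. Over all genes, 506 of 8151 were called higher without those cells. Of 11 interferon-stimulated genes, Ly6e was higher by 1.12 (SE 0.09), and Igtp (0.71) was among those called as well without those cells. Of 16 immediate early genes, Nr4a1 and Nfkbia were higher and Ier2 lower. Of 9 heat shock genes, Hsp90aa1 and Hspe1 were lower, joined by Hsph1 and Hspa5 without those cells, and of 11 metabolic genes Hif1a was higher and Txnip lower. Lgals1, Socs2 and Ccr4, of the suppression, interleukin 2 and homing lists, were also called higher without those cells, and not with them.

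Beyond the lists, the called genes with the largest fold changes that pointed one way in 6 of 6 mice were, on the higher side and after Lrrc32, Itgae and Gpr83, Neb (log2 fold change 3.45), Tnfrsf9, Ankrd55 (3.21), Msrb3 (3.09), Myo3b (3.04), Rgs9 (3.01), Cd80 (2.80), Cd83 (2.73) and Sh3rf1 (2.66). On the lower side they were Apol7e (-4.33), Auts2 (-4.08), Acoxl (-3.70), Gm14085 (-3.60), Il12rb2, Dapl1, Vipr1 (-3.13), Tdrp (-3.06), 4933406I18Rik (-3.04), Pdlim4 (-2.87), Fasl, the gene of the death ligand of cytotoxic cells (-2.86), and 1810041H14Rik (-2.82). Cd80 encodes a ligand of CTLA4 and is a gene of antigen-presenting cells. Of its 114 UMIs in members, 52 (45.6%) lay in the 12 cells rich in other RNA, and without those cells Cd80, and likewise Msrb3, fell below the limit for testing. Of 259 Cd83 UMIs 138 lay in those cells, and without them its log2 fold change was 3.14. The other ligand gene, Cd86, named here after its value was seen, had a log2 fold change of 2.64 (SE 0.31), with 111 of 303 UMIs in those cells, and of 2.78 without them.

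The count of genes was larger without those 12 cells and their like among Foxp3-zero cells, at 882, and smaller with 3 Foxp3-zero cells matched to each member in UMIs, at 452. Without ipilimumab replicate 1 it was 479, of which 470 were among the 776.

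Expression in members was then compared between treatments, for which 5495 genes had enough UMIs. By the same test 1 gene was called (0.0182%), Fn1, which was lower in ipilimumab. Without adjustment, 124 genes had p under 0.05 and a higher level (2.26%) and 97 a lower level (1.77%). In simulated data of this size, with the same spread for every gene, the test recovered 98.9% of genes changed 4-fold but 7.95% of genes changed 2-fold. Most 2-fold differences would thus be missed with these cells. The simulation did not bunch UMIs in single cells, so its recovery of 4-fold changes need not hold for the real genes. Ccl5, Agpat5 and Plagl1, with log2 fold changes of 3.32, 2.19 and -2.20, were not called.

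Fn1, which encodes the matrix protein fibronectin, was at 242, 456 and 126 CPM in the IgG1 mice and at 2.50, 7.99 and 4.08 CPM in the ipilimumab mice (log2 fold change -5.78, SE 0.60, adjusted p = 0.00948). The IgG1 values rested on 229 UMIs in 5 cells, and 135 UMIs of Fn1 lay in a single cell. Of all 235 Fn1 UMIs in members, 203 (86.4%) were in the 12 cells rich in other RNA. Without those cells Fn1 fell below the limit for testing and no gene was called by edgeR, with 197 genes at an unadjusted p under 0.05.

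The target gene Ctla4 was at 2074, 3151 and 2899 CPM in the IgG1 mice and at 3504, 2787 and 4067 CPM in the ipilimumab mice. The groups overlapped, since ipilimumab replicate 2 lay below 2 of the IgG1 mice, and the means were 2708 ± 563 and 3453 ± 642 CPM (log2 fold change 0.35, SE 0.21, adjusted p = 0.974). Il2ra had a log2 fold change of 0.54 (SE 0.45) and Tnfrsf4 of 0.41 (SE 0.35), neither of them called. Ikzf2 was at 756 CPM in IgG1 replicate 1 and at 1741 to 2684 CPM in the other 5 mice, and its log2 fold change of 0.19 (SE 0.36) became -0.17 without that mouse. Il2ra was at 386 CPM in ipilimumab replicate 3 and 103 to 178 CPM in the other 5 mice, and became -0.24 without that mouse.

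None of the 15 gene lists held a called gene. The values of their members are given next as a description, beside the shares of all genes tested with an unadjusted p under 0.05 (4.02%) and with groups that do not overlap (10.9%, or 5.46% higher and 5.48% lower). Of the TNF receptor family, 4 genes were tested and Tnfrsf9 and Tnfrsf1b had p under 0.05. Tnfrsf1b had a log2 fold change of 0.54 (SE 0.24), and of 0.37 (unadjusted p = 0.174) without the 12 cells. Tnfrsf9 was at 85.5, 168 and 247 CPM in the IgG1 mice and at 277, 500 and 584 CPM in the ipilimumab mice, without overlap (log2 fold change 1.41, SE 0.37, adjusted p = 0.974). Of 14 core genes tested, with a median of -0.03, Tnfrsf18 had a higher and Bach2 a lower value at p under 0.05. Bach2 had a log2 fold change of -0.68 (SE 0.28), which was -0.36 without IgG1 replicate 1. Tnfrsf18 was at 71.3, 138 and 126 CPM for IgG1 and at 237, 306 and 239 CPM for ipilimumab, again without overlap (log2 fold change 1.16, SE 0.27, adjusted p = 0.726). The change of Tnfrsf18 ranged from 0.97 to 1.36 when each mouse was left out in turn, and it was 1.07 without the 12 cells. Without those cells Capg was at 0.91 (unadjusted p = 0.0109) and Nrp1 at 0.02, against 0.61 (unadjusted p = 0.0547) and -0.43 with them.

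Of 16 tissue effector genes, 4 had p under 0.05 and a higher value in ipilimumab, and none a lower one (median log2 fold change 0.68, against -0.00 over all genes). Il1rl1 was at 0, 73.3 and 140 CPM in the IgG1 mice and at 167, 210 and 451 CPM in the ipilimumab mice, found in 9 of 62 and 37 of 107 members (log2 fold change 1.86, SE 0.63, adjusted p = 0.974). The others were Il18r1, the interleukin 18 receptor (1.15, SE 0.41), Prdm1, the effector transcription factor Blimp-1 (1.16, SE 0.45), and Gata3 (0.85, SE 0.36). Without the 12 cells rich in other RNA, Areg (1.16, unadjusted p = 0.0232) and Cd44 (0.80, unadjusted p = 0.0430) had p under 0.05 as well. With each mouse left out, the change of Il1rl1 ranged from 1.31 to 2.55. Without IgG1 replicate 1, the unadjusted p of Gata3 was 0.111 and that of Prdm1 0.0557. The naive and central genes had a median of -0.36 over 11 tested, with Lef1 (-0.62, SE 0.25) and Klf2, which holds T cells in circulation (-0.61, SE 0.27), at p under 0.05. Lef1 was at 898, 554 and 570 CPM for IgG1 and at 490, 357 and 455 CPM for ipilimumab. Without IgG1 replicate 1, their log2 fold changes were -0.37 and -0.31, with unadjusted p of 0.120 and 0.228. Without the 12 cells that of Klf2 was -0.41 (unadjusted p = 0.0766). Tcf7 was at -1.07 with and without the 12 cells, with an unadjusted p of 0.0533 with them and 0.0413 without.

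**Figure D4:**
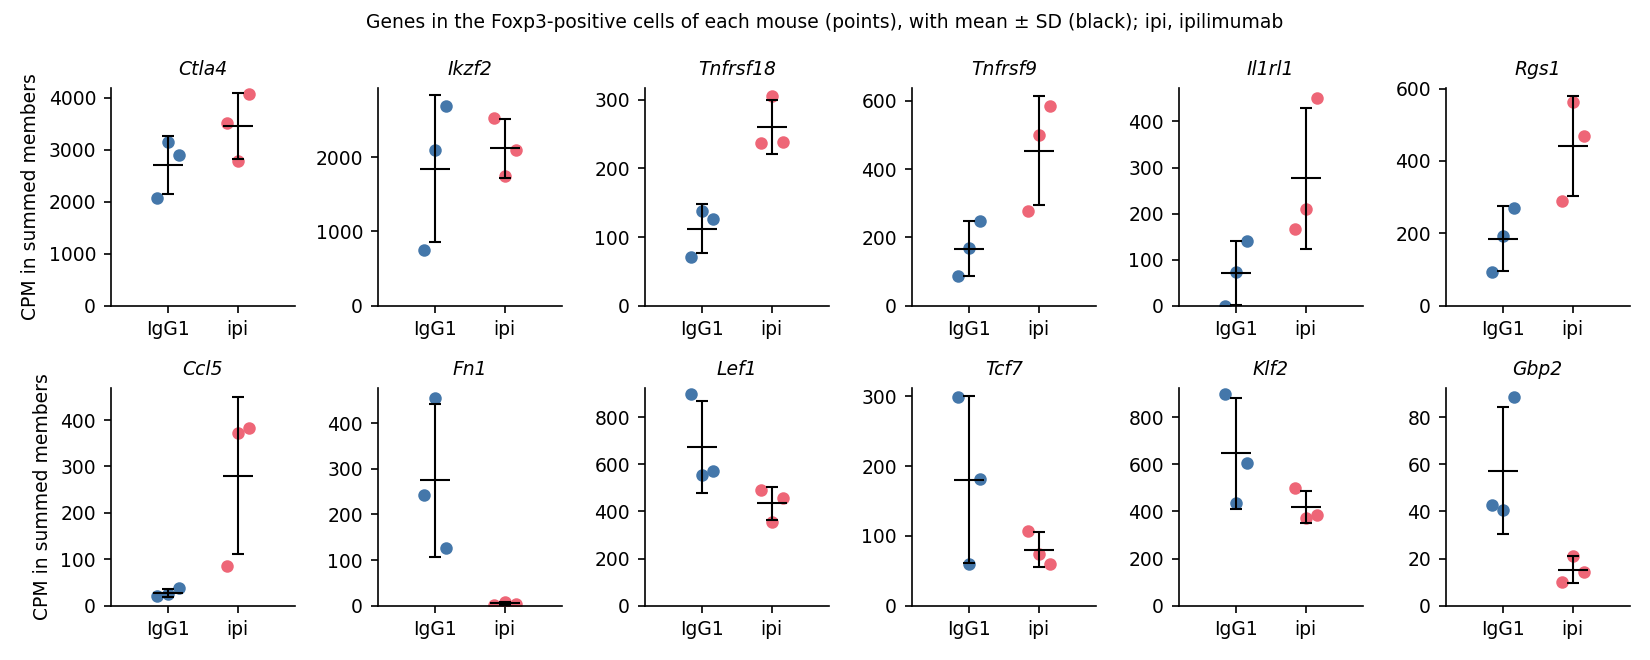
Level in CPM (vertical axes) of 12 genes in the summed Foxp3-positive cells of each IgG1 and ipilimumab (ipi) mouse, as points, with the mean ± SD in black. The groups do not overlap for Tnfrsf18, with 71.3 to 138 CPM in IgG1 and 237 to 306 CPM in ipilimumab, and do overlap for Ctla4 and Ikzf2; of the 12 genes Fn1 alone passed the adjusted test.

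Of 14 homing genes, Cxcr6, a receptor of tissue-resident T cells (log2 fold change 1.98, SE 0.63), and Rgs1, a brake on chemokine receptors (1.21, SE 0.35), had p under 0.05. Cxcr6 ranged from 1.41 to 2.98 with each mouse left out. Of the 699 Rgs1 UMIs, 207 lay in the 12 cells rich in other RNA, and without those cells its log2 fold change was 0.75 (unadjusted p = 0.0725) and Cxcr6 fell below the limit for testing. Of the suppression genes, Fgl2 (1.53, SE 0.50) and Itgb8, an integrin chain that frees active TGF-β (2.10, SE 0.83), had p under 0.05, and of the interleukin 2 genes Cish did (0.94, SE 0.34). Fgl2 was at 0.83 without ipilimumab replicate 3, which held 100 of its 156 UMIs in the ipilimumab mice, and Itgb8 ranged from 1.45 to 4.27 with each mouse left out. Of the list genes with p under 0.05, Tnfrsf9, Tnfrsf18, Rgs1 and Gbp2 kept it whichever mouse was left out, and the others lost it without at least 1 mouse. Of 15 interferon-stimulated genes 9 could be tested. Their median was -0.11, all 9 lay below 0, Ly6a and Ly6e at -0.01 each, and the guanylate-binding protein gene Gbp2 (-1.89, SE 0.49) and Iigp1 (-1.22, SE 0.44) had p under 0.05. Gbp2 was at 42.8, 40.7 and 88.7 CPM for IgG1 and at 10.0, 21.3 and 14.3 CPM for ipilimumab, from 40 and 19 UMIs. Of the untested genes, Irf7 was found in 7 of 62 IgG1 and 28 of 107 ipilimumab members, and Isg15 in 12 of 62 and 29 of 107. The division and heat shock lists had no gene with p under 0.05, with medians of 0.25 and 0.00. Prkcq of the costimulation list (-0.58, SE 0.24), Egr1 of the immediate early list (1.01, SE 0.43) and Stat4 of the helper list (0.59, SE 0.25) had p under 0.05. Of 91 Egr1 UMIs 42 lay in the 12 cells, and without those cells it fell below the limit for testing. Prkcq was then at -0.48 (unadjusted p = 0.0605) and Stat4 at 0.47 (unadjusted p = 0.0613).

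The genes with the smallest p that were not called were Jdp2, Ccl5, Tshz2, Odc1 and Agpat5 on the higher side and Plagl1, Xpo7, Gbp2, Ifi213 and Gm42418 on the lower side. Ccl5, a chemokine gene of effector T cells, was at 21.4, 24.4 and 37.3 CPM in the IgG1 mice and at 85.0, 373 and 382 CPM in the ipilimumab mice (log2 fold change 3.32, SE 0.59, adjusted p = 0.344). It was found in 12 of 62 IgG1 members and 25 of 107 ipilimumab members, and 146 of its 381 UMIs lay in 1 cell. Without the 12 cells its log2 fold change was 2.71. Jdp2, a regulator of AP-1, had 74 of its 129 UMIs in the 12 cells rich in other RNA and fell below the limit for testing without them. Tshz2 had no UMI in any of the 62 IgG1 members and 67 UMIs in 8 of 107 ipilimumab members, up to 21 in a single cell. Ipilimumab replicates 1 and 2 had 1 such cell each. The gene passed the limit for testing through the ipilimumab mice alone, and so few cells set no firm bound on its fold change. Odc1, the first enzyme of polyamine synthesis, was more evenly spread, with UMIs in 133 of 169 members. It was at 335, 280 and 378 CPM for IgG1 and at 562, 793 and 843 CPM for ipilimumab (log2 fold change 1.15, SE 0.23, adjusted p = 0.528), and at 0.96 without the 12 cells.

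The same contrast was made in the Foxp3-zero Cd4 T cells, where none of 9948 genes was called by edgeR and 747 (7.51%) had an unadjusted p under 0.05, and 33 were called by DESeq2. In these cells the macrophage markers stood at 811, 1107 and 575 CPM for IgG1 and at 1039, 1909 and 3306 CPM for ipilimumab. The epithelial markers did not overlap, at 19.3, 49.8 and 2.85 CPM against 128, 70.3 and 4320 CPM. The part of such RNA in this contrast was not tested. For each gene the change in members was then tested against that in Foxp3-zero cells of the same mice. This difference came from a joint fit of both cell types, so it need not equal the subtraction of the changes fitted in each. It can be narrowed by regulatory T cells with missed Foxp3 among the Foxp3-zero cells. Of 8498 genes 1 was called (0.0118%), again Fn1, with a difference of -6.73 (SE 0.83, adjusted p = 0.0322), and none without the cells rich in other RNA. For Ctla4 the change was 0.35 in members and 0.02 in Foxp3-zero cells, a difference of 0.31 (SE 0.23). For Tnfrsf18 the changes were 1.16 and 0.35, a difference of 0.87 (SE 0.32, unadjusted p = 0.0195, adjusted p = 1). For Tnfrsf9 they were 1.41 and 0.39, a difference of 1.06 (SE 0.57), and for Il1rl1 1.86 and 1.65, a difference of 0.52 (SE 0.71). No difference between the cell types other than that of Fn1 passed the adjusted test.

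The members were also sorted into states that may overlap, by whether a cell held at least 1 UMI of a short list after thinning to 1000 UMIs. The naive or central state, read here over the 4 genes Ccr7, Tcf7, Lef1 and S1pr1, a choice of genes made after seeing the data, took in 66.7%, 52.0% and 73.7% of the members of the IgG1 mice and 51.4%, 50% and 47.7% of those of the ipilimumab mice. Each ipilimumab mouse lay below each IgG1 mouse, though IgG1 replicate 2 and ipilimumab replicate 1 nearly met. The means were 64.1% ± 11.1 and 49.7% ± 1.87, a difference of -14.4 percentage points (exact permutation p = 0.1, the smallest possible, adjusted p = 0.4 over the 4 states), and the difference was -18.5 points without the 12 cells rich in other RNA. In Foxp3-zero Cd4 T cells this state took in 83.2% ± 1.66 and 76.6% ± 3.07, also without overlap (exact permutation p = 0.1).

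The tissue effector state (Il1rl1, Klrg1, Areg, Gata3, Itgae, Ccr8 or Rora) took in 50.2% ± 12.02 of IgG1 members and 64.0% ± 9.59 of ipilimumab members (exact permutation p = 0.3), against 26.9% ± 1.88 and 34.5% ± 3.85 of Foxp3-zero cells. Activation receptor genes (Icos, Tnfrsf4, Tnfrsf9, Tnfrsf18, Pdcd1 or Tigit) were found in 33.3%, 72.0% and 63.2% of IgG1 members and in 68.6%, 67.9% and 70.5% of ipilimumab members (exact permutation p = 0.4), so that the difference of means came with a low value in IgG1 replicate 1. Dividing cells (Mki67, Top2a, Pclaf, Birc5, Cdk1 or Ccna2) were 5.56%, 36.0% and 26.3% of IgG1 members and 14.3%, 17.9% and 11.4% of ipilimumab members (exact permutation p = 0.5). The share of dividing cells overlapped fully between groups. It was 6.72% ± 0.0917 and 5.07% ± 1.69 among Foxp3-zero cells. Without thinning, the differences between groups in members turned in sign, to -1.61 percentage points for the activation receptor state and 0.20 for the dividing state.

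**Figure D5:**
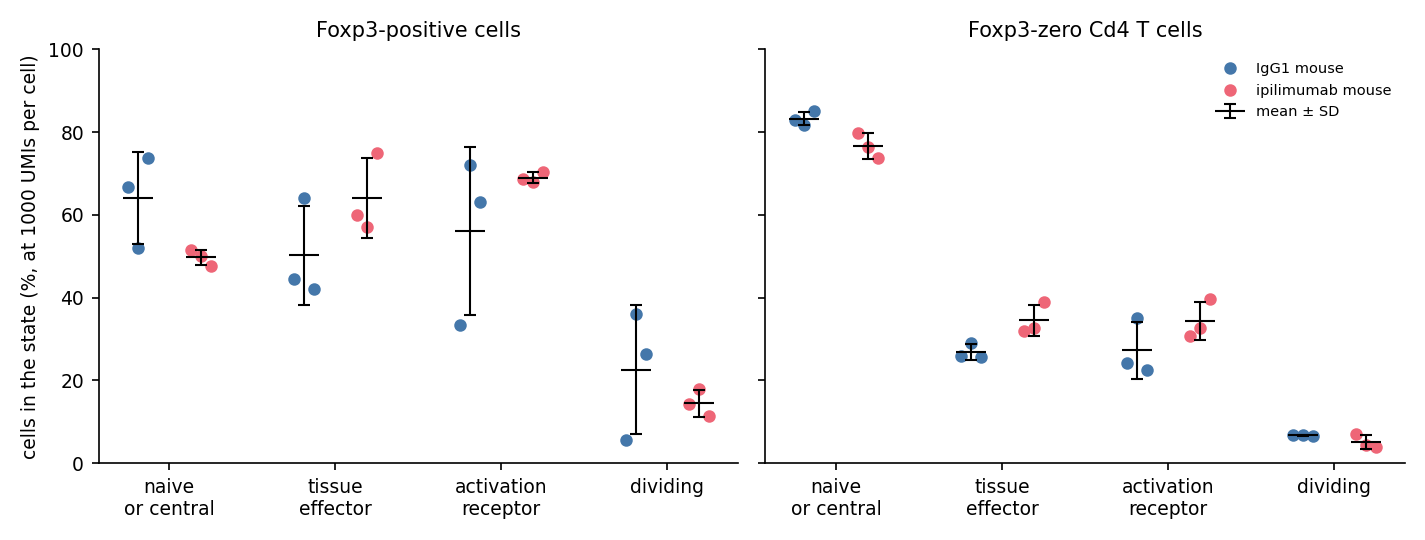
Share of cells (%, vertical axis) in 4 overlapping states (horizontal axis) among Foxp3-positive cells (left) and Foxp3-zero Cd4 T cells (right), each cell thinned to 1000 UMIs, as 1 point per mouse with the mean ± SD in black. On the left the groups do not overlap in the naive or central state, with 52.0% to 73.7% for IgG1 and 47.7% to 51.4% for ipilimumab, and overlap in the 3 other states.

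The states were not separate kinds of cell. Without thinning, 149 of the 169 members held UMIs of both the tissue effector and the activation receptor list, 2 of the first alone, 15 of the second alone and 3 of neither. All 56 members with a division gene also held a tissue effector gene. Mitochondrial UMIs differed little between the groups, at 2.99% to 3.54% of the members' UMIs for IgG1 and at 2.78% to 3.4% for ipilimumab. The noncoding gene Gm42418 had a log2 fold change of -0.71 (SE 0.19) in members and -0.55 (SE 0.14) in Foxp3-zero cells, not called in either. Ribosomal protein genes took 20.0%, 15.3% and 19.4% for IgG1 and 17.3%, 16.2% and 15.4% for ipilimumab, highest again in IgG1 replicate 1, and their part in the results was not tested.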

How the data were processed

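Single-cell 3' RNA was measured in 6 libraries, 1 per mouse. The authors digested the right lung, prepared 10x libraries and aligned reads to mm10; the deposited values are UMI counts per gene (32285) and barcode, unfiltered. The submitters' processing notes name Cell Ranger 7.0.0, the matrix headers Cell Ranger 4. Totals ranged from 37666042 to 48612412 UMIs. Members and gene lists were chosen with earlier results of these data known. Counts were summed per mouse and tested with edgeR 4.0.16 (R 4.3.3; filterByExpr, TMM, quasi-likelihood, Benjamini-Hochberg), with mouse as a term between cell types. Levels are CPM on TMM-scaled totals of each comparison, so they differ slightly between comparisons; sums of other cell types' markers are CPM on plain totals. Values per mouse were tested by exact permutation. Named genes were the markers, list members, and per comparison the 12 called genes of largest change in each direction that agreed in all mice, or with under 10 calls the 5 of smallest p in each direction. GENCODE vM21 gave positions. Doublets were scored on 30 principal components against 2 simulated doublets per cell and kept, except in an alternative. The test was tested on simulated data. Labels do not say more than that each library is a mouse of its group, so p-values measure the spread between these mice. Alternatives used DESeq2 1.42.0, other scaling, filters, cell rules and single mice left out. Some genes of the lists are not reported here, and the naive or central state was read without 1 of them.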

Additional observations from a re-analysis of the deposited data

Results flagged for a closer look

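Fn1 was singled out because its change under ipilimumab differed between Foxp3-positive and Foxp3-zero Cd4 T cells, by -6.73 on the log2 scale (edgeR, adjusted p = 0.0322). It was 0.92 (SE 0.43) in the Foxp3-zero cells and -5.78 in the members, where 203 of its 235 UMIs lay in the 12 cells rich in RNA of other cell types. In the Foxp3-zero cells, macrophage markers averaged 831 ± 267 CPM for IgG1 and 2085 ± 1144 CPM for ipilimumab, and their part in the value of Fn1 was not tested.

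Foxp3 was also found outside the members, in Cd8 T cells, whose expression was not compared. Among Cd8 T cells, which have a Cd8a or Cd8b1 UMI and none of Cd79a, 30 of 2156 held Foxp3. The shares were 0.545%, 1.03% and 1.43% in the IgG1 mice and 1.94%, 1.63% and 1.73% in the ipilimumab mice, without overlap (means of 0.999% ± 0.441 and 1.77% ± 0.162, exact two-sided permutation p = 0.1, the smallest possible). These were 2, 3 and 6 cells for IgG1 and 7, 6 and 6 for ipilimumab. Of them, 1, 0 and 2 for IgG1 and 2, 2 and 4 for ipilimumab held exactly 1 Cd8 UMI. The lack of overlap depends on counting these 11 cells. The share in B cells was 0.131% and 0.271%, at a lower median depth.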

How the results depend on the processing

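There were 18 to 44 members per mouse and 3 mice per group, so no exact test could go below p = 0.1. The directions of the 4 measures of number held under every alternative run except thinning each cell to 1000 UMIs before the rule, which left 15 members and gave log2 ratios of -0.14 of T cells, -0.15 of T cells without Cd8 and -0.078 per 100 Cd8 T cells. With each mouse left out in turn, the log2 ratio of the share of all cells ran from 0.39 to 0.75. Without thinning, the differences of the activation receptor and dividing states were -1.61 and 0.20 percentage points, and that of the naive or central state shrank from -14.4 to -8.07. With the full list of that state the difference was -17.8 points, and -7.00 when at least 2 UMIs of the list were required. With each mouse left out, the difference ran from 8.39 to 20.8 points for the tissue effector state. It ran from 1.38 to 20.7 points for the activation receptor state and from -16.7 to -1.43 points for the dividing state. Leaving out the cells rich in other RNA was chosen after seeing the data.

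Genes called between treatments in members were 107 with no filter on low counts, 4 with DESeq2 (Fn1, Ccl5, Tshz2 and Odc1), 0 without doublets, 0 without cells rich in other RNA, 0 with members thinned, and 0 to 2 with each mouse left out, where Fn1 was not called without any one of the ipilimumab mice, though its log2 fold change stayed between -6.22 and -5.12 and its unadjusted p under 0.05 in 6 of 6 such fits. Ccl5 was called without ipilimumab replicate 1 (log2 fold change 3.74), also for the difference of the treatment changes (3.10). S100a8 and S100a9 were called without ipilimumab replicate 3, and Ccl9 beside Fn1 without IgG1 replicate 3. Between members and Foxp3-zero cells 452 were called with matched UMIs, and 479 to 960 with each mouse left out; of 83 such genes named or listed, none reversed, and 29 lost their call under at least 1 alternative (100 of 1229 values). For the difference of the treatment changes, 87 genes were called with no filter, 0 without doublets, 0 without cells rich in other RNA and 0 to 2 with each mouse left out. In Foxp3-zero cells, 89 were called with no filter, 33 with DESeq2, and 0 to 75 with each mouse left out, the 75 without ipilimumab replicate 1. With each mouse left out, Ikzf2 ran from -0.17 (without IgG1 replicate 1) to 0.56 and Il2ra from -0.24 (without ipilimumab replicate 3) to 0.84. The cause of these changes was not tested.

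The labels number the mice 1 to 3 in each group. Deviations of same-numbered mice correlated at -0.07, 0.04 and -0.00, so the numbers were not taken as pairs. With the replicate number as a block, 2 genes were called in members (Fn1 and Ccl5), and the log2 ratio of the share of all cells was 0.63.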
